A study of Mus musculus with 6 samples.

Results

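The 59 genes described here encode the machinery of DNA replication and of mitosis, and their messenger RNA was compared in cultured mouse podocytes with and without fibroblast growth factor 1 (FGF1). The genes were listed by name for their known functions, with earlier results of these data known, and were found in the table by symbol. Of the 24469 loci in the deposited table, each of the 59 genes matched 1 locus by its symbol, and 31 of the genes act in S phase, when DNA is copied, while 28 act in G2/M, when the cell prepares for and carries out division. The cells were MPCs, a conditionally immortalized line of podocytes, the epithelial cells that wrap the glomerular capillaries. By the protocol, MPCs are grown in medium with 5.5 mM glucose. They multiply at 33 °C with 50 U/mL interferon gamma and differentiate over 10 days once it is withdrawn and the temperature is raised to 37 °C, and passages 10 to 15 were used. All 6 libraries came from cells starved of serum for 12 h and then kept for 12 h in high glucose (HG, 25 mM). In 2 libraries the cells had received no FGF1 (HG), in 2 they had been pretreated for 1 h with 100 ng/mL recombinant wild-type human FGF1 (rFGF1WT), and in 2 with 100 ng/mL of rFGF1ΔHBS, a variant with substitutions in the site that binds heparan sulfate, made to lower mitogenic activity. No pretreatment step is described for the HG cells, so nothing shows that the step itself was matched between HG and the other groups. None of the 6 libraries is from cells kept at normal glucose. Nothing in the labels says that the 2 libraries of a group came from separate cultures, and p-values therefore measure only the spread between these libraries.

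The cell cycle is driven by cyclin-dependent kinases and their cyclin partners. Growth factors raise D-type cyclins in G1, the retinoblastoma proteins are then phosphorylated and release E2F factors, and these switch on the genes of replication. Replication origins are licensed by the origin recognition complex, CDC6 and CDT1, which load the MCM helicase, and polymerases then copy the DNA with the sliding clamp PCNA. Genes of G2 and mitosis are switched on later by B-MYB and FOXM1, and their products build the spindle, hold the checkpoint and separate the chromosomes. Podocytes of the adult kidney hardly divide, and FGF1 is a mitogen for many cell types.

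The comparison of rFGF1WT and rFGF1ΔHBS bears on whether replication and mitosis genes respond differently to the wild-type protein and to the variant. Transcripts of all 59 genes were detected in every library, E2f2 at the lowest level. No member passed an adjusted p of 0.05 together with a 2-fold change in any comparison, where 1.01% of the 10562 tested loci did so for rFGF1WT against HG, 0.899% for rFGF1ΔHBS against HG and 0.35% for rFGF1ΔHBS against rFGF1WT. These counts come from limma on log2(FPKM + 1), and the members with an unadjusted p under 0.05 numbered 11, 10 and 1 in the same order, against 24.8%, 24.9% and 4.87% of all tested loci. With the adjusted p alone, 4 members were called against HG, namely Tk1 and Rrm2 upwards and Bub1b and Nusap1 downwards, each by well under 2-fold, where 6.19% (rFGF1WT) and 6.26% (rFGF1ΔHBS) of all tested loci were called. None of these member calls remained when any 1 of the 6 libraries was left out, which leaves 2 residual degrees of freedom, while the differences kept their direction.

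The promoters of these genes differ by phase, and 6 of them are shown because they belong to the 4 genes called against HG and to 1 gene of each phase, Mcm3 and Cdc20, picked as examples that hold the motifs. They are RefSeq promoters of GRCm38.p6, from 250 bases before to 50 bases after the start of transcription, written in the direction of the gene. The motifs searched on both strands were the E2F site as TTTCCCGC or TTTGGCGC, the CHR element as TTTGAA or TTCGAA, which the LIN54 subunit of the DREAM and MMB complexes binds, and the CCAAT box, which NF-Y binds. Only exact matches to these letters were counted, so a promoter without a match may still hold another form of a site. TTCGAA reads the same on both strands and was counted once, and matches of different motifs were allowed to overlap. Capitals mark the matches, and a match on the other strand appears as its reverse complement. Tk1 lies at chr11:117825965-117826264 on the minus strand, Rrm2 at chr12:24708004-24708303 on the plus strand, Mcm3 at chr1:20820263-20820562 on the minus strand, Bub1b at chr2:118597961-118598260 and Nusap1 at chr2:119618048-119618347 on the plus strand, and Cdc20 at chr4:118437294-118437593 on the minus strand.
Tk1: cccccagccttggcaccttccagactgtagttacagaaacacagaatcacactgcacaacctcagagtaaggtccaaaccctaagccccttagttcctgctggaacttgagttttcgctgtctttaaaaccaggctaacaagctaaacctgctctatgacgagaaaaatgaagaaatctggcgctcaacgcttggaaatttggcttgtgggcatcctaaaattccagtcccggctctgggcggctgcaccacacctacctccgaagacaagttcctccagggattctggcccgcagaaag
Rrm2: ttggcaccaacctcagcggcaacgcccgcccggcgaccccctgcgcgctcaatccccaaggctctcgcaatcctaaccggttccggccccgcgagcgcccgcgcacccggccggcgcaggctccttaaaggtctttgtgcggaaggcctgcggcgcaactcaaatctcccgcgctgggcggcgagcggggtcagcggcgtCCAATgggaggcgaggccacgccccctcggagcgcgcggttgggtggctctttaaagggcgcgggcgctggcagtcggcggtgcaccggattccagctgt
Mcm3: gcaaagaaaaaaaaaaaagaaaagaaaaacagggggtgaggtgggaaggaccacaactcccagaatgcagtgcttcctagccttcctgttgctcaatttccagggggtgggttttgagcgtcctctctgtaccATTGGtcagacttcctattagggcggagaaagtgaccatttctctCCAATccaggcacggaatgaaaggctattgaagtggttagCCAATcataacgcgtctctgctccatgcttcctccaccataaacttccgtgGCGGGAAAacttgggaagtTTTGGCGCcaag
Bub1b: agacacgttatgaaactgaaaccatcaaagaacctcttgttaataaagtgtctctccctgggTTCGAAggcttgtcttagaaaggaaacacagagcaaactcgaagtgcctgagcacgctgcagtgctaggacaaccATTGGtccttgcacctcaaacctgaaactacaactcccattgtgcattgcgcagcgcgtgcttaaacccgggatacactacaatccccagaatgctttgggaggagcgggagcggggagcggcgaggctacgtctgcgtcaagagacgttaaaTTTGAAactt
Nusap1: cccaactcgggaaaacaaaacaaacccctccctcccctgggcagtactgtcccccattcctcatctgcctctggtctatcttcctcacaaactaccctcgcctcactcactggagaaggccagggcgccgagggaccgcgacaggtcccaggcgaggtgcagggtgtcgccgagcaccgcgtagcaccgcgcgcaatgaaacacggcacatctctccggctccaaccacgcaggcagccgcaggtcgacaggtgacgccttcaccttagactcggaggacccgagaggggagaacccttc
Cdc20: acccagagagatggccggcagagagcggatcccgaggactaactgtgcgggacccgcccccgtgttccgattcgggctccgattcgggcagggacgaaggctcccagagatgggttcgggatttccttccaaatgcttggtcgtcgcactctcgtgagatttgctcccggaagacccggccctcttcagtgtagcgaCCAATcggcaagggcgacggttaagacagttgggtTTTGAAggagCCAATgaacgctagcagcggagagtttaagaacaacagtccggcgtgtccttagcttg

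Mcm3, a helicase subunit, carries E2F matches whose first bases lie 19 and 38 bases after the start, and Cdc20, an activator of the anaphase-promoting complex, carries a CHR match beginning 18 bases before it between 2 CCAAT boxes. Among the called genes, Bub1b holds 2 CHR matches and 1 CCAAT box and Rrm2 holds 1 CCAAT box, while Tk1 and Nusap1 hold none of the 3 motifs in this window. Of the 59 members, 49 matched the promoter table, 27 S phase genes with 31 promoters and 22 G2/M genes with 22. An E2F match stood in 12 of 31 S phase promoters (38.7%) and in 0 of 22 G2/M promoters, against 3.03% of the promoters of other tested genes and 1.56% of all promoters in the table. A CHR match stood in 17 of 22 G2/M promoters (77.3%) and in 7 S phase promoters (22.6%), against 13.3% of the promoters of other tested genes and 19.2% of all. A CCAAT box was found in 86.4% of G2/M promoters, 67.7% of S phase promoters, 38% of those of other tested genes and 37.4% of all. All 17 G2/M promoters with a CHR match also held a CCAAT box, a pairing found in 19.4% of S phase promoters and 5.48% of those of other tested genes. Median GC content was 57.3% for S phase promoters, 59.7% for G2/M promoters and 61.3% for those of other tested genes. The shares are descriptions of reference sequence and say nothing of what was bound in these cells.

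**Figure D1:**
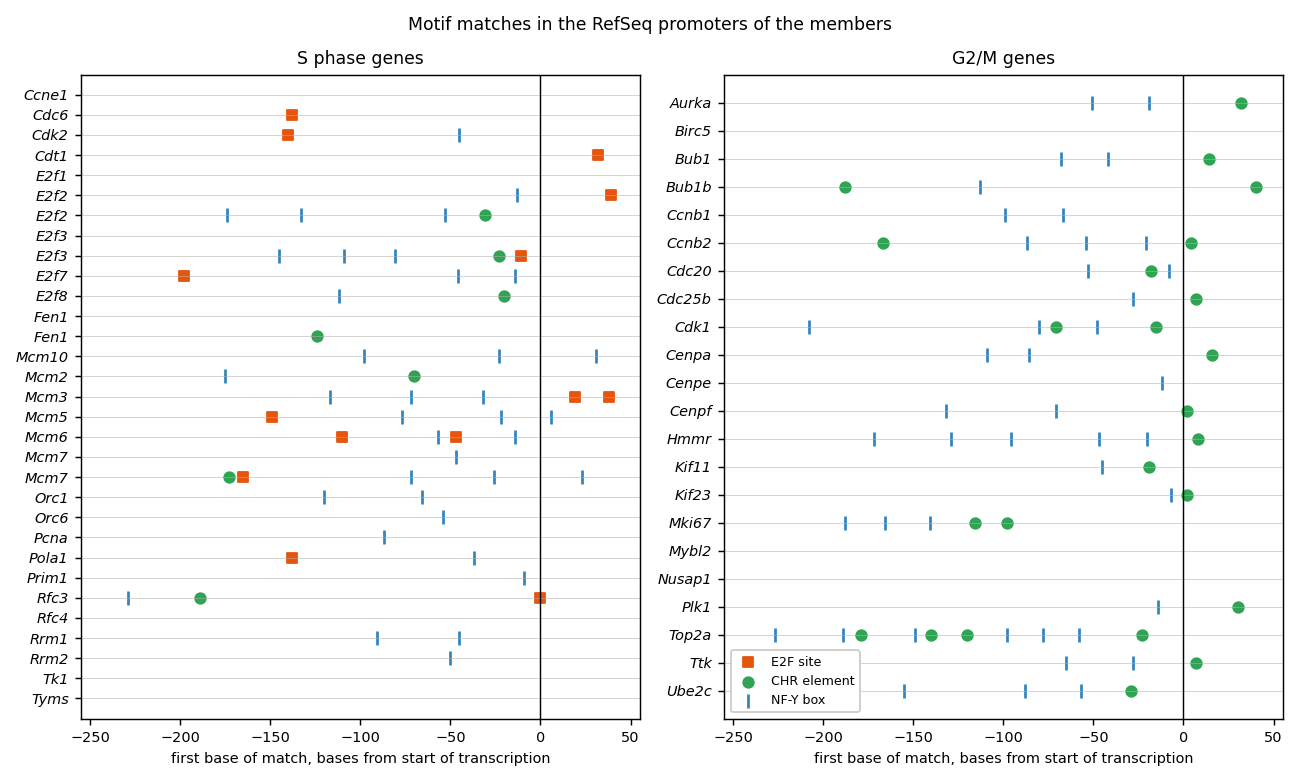
Positions of motif matches in the RefSeq promoters of the S phase genes (left) and G2/M genes (right); the x axis gives the first base of a match in bases from the start of transcription, squares are E2F sites, circles CHR elements and vertical ticks the box bound by NF-Y, and a gene with 2 promoters has 2 lines. Exact E2F matches appear in 12 of 31 S phase promoters and in none of the 22 G2/M promoters, and CHR matches in 17 of the G2/M promoters.

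Values are FPKM, fragments assigned to a locus per unit length of its transcripts and scaled to the mapped fragments of the library, so levels of different genes are per length. FPKM carry no read totals, the depth behind each value is unknown, and the steps between low values placed the other libraries at 0.972 to 1.01 of the depth of the first HG library. Replicates correlated at 0.916 to 0.923 and libraries of different groups at 0.895 to 0.924 (Pearson's r across the tested loci, which are not independent). The cell type was checked against markers. Of the podocyte markers, Podxl, Synpo, Cd2ap, Actn4, Kirrel and Nes were expressed, but the defining genes Wt1, Lmx1b and Ptpro were at or near 0 in every library and Nphs1 did not exceed 0.942 FPKM. The tubule genes Cdh16 and Lrp2 were present at 68.4 to 96.2 FPKM and 22.2 to 28.5 FPKM, while the 4 other tubule markers in the table were near 0. Of the markers listed, 7 of 13 for podocytes, 2 of 8 for tubule, 2 of 8 for macrophages, 1 of 8 for endothelium and 3 of 8 for mesangium and fibroblasts passed the filter on low values. The summed level of the podocyte list was 222 to 228 FPKM in HG and 296 to 315 FPKM with either protein, that of the tubule list 114 to 123 FPKM in HG and 91.1 to 96.3 FPKM with either protein, and that of the macrophage list 60.3 to 63.0 FPKM in HG and 69.7 to 78.8 FPKM with either protein, nearly all from Cd68 and Cd14, with Ptprc and Adgre1 near 0. The endothelial list summed to 2.07 to 2.50 FPKM and the mesangial and fibroblast list to 44.2 to 49.0 FPKM. The podocyte genes did not move together, and of the 7 tested, 5 were higher and 2 lower than HG with either protein. Nes stood at 41.8 to 43.2 FPKM in HG and 78.7 to 84.3 FPKM with either protein. Synpo stood at 9.58 to 10.2 FPKM in HG and 4.01 to 6.83 FPKM with either protein, and Podxl was also lower. The part of these lists in the results for the members was not tested, and in bulk samples fewer cells in cycle and less RNA per cell cannot be told apart.

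All 59 members passed the filter on low values, a mean of at least 1 FPKM, and none was listed at 0 in any library. Mean levels ran from 1.84 FPKM for E2f2 to 131 FPKM for Mcm4, with a median of 18.8 FPKM for the S phase genes and 24.2 FPKM for the G2/M genes, against 7.91 FPKM for all tested loci. The members thus sat high in the range of the transcriptome of these cells, 54 of the 59 above the median tested locus, although the protocol calls for 10 days of differentiation. E2f2 was the 1 member with a mean under 5 FPKM. The spread within groups was narrow for both lists, with a median SD of 0.097 on the log2 scale for S phase genes and 0.095 for G2/M genes, beside 0.11 for all tested loci and 0.089 for the 3036 loci whose mean lay between the quartiles of the members.

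**Figure D2:**
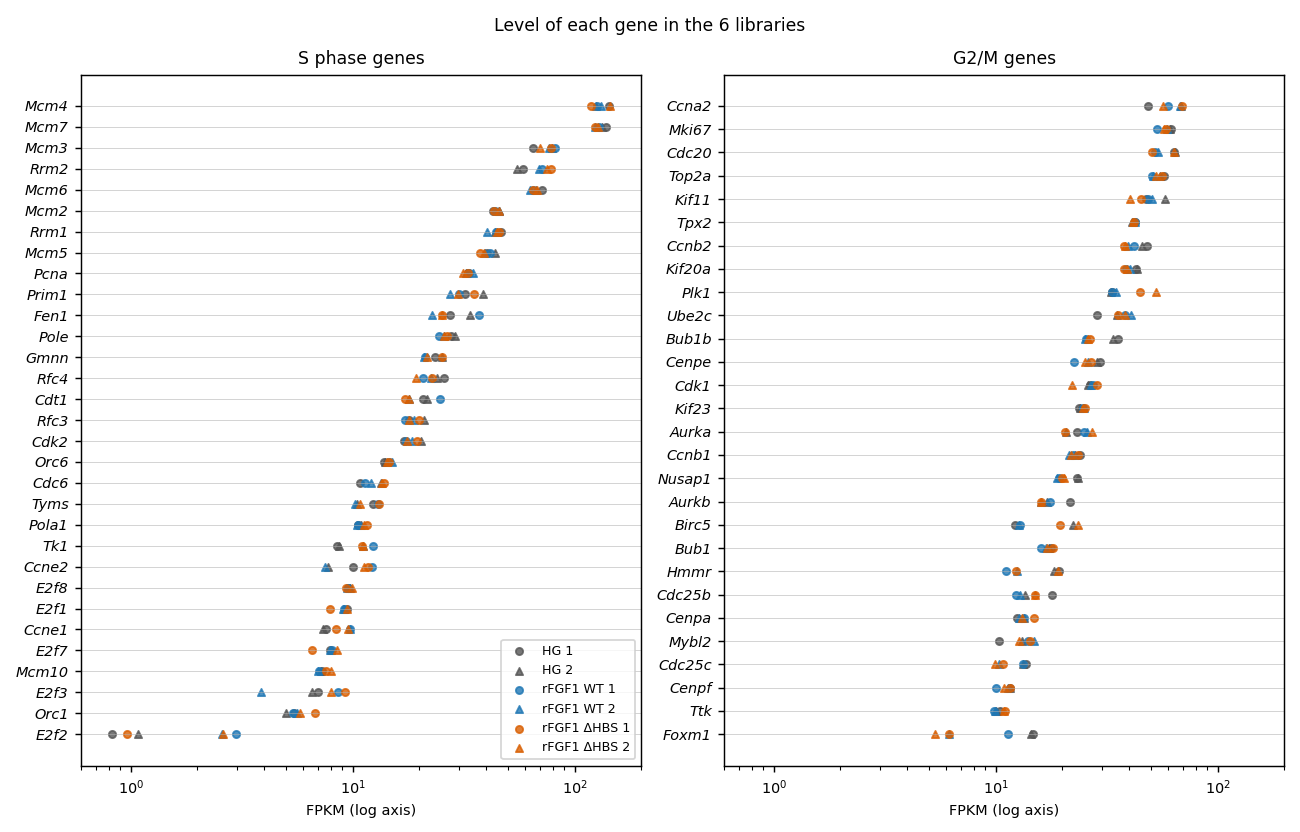
FPKM of each S phase gene (left) and G2/M gene (right) in the 6 libraries, on a log x axis; colours give the group and circles and triangles the first and the second library. For most genes the 6 points lie close together, and E2f2, E2f3, Birc5 and Foxm1 are among the few with points spread widely.

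Summed over the 31 S phase genes, the libraries held 952.3 and 958.1 FPKM in HG, 962.4 and 921.2 FPKM with rFGF1WT, and 947.3 and 954.4 FPKM with rFGF1ΔHBS. The S phase sums of the 3 groups overlapped, and the highest and the lowest both belonged to rFGF1WT. Summed over the 28 G2/M genes, the libraries held 823.2 and 850.0 FPKM in HG, 768.1 and 787.0 FPKM with rFGF1WT, and 799.1 and 802.4 FPKM with rFGF1ΔHBS. As deposited, the groups did not overlap in the G2/M sums, with HG highest and rFGF1WT lowest. Median-ratio scaling divides each library by a factor, which was 1.0306 and 1.0386 in HG and 0.99033 to 1.0077 in the other libraries. Such scaling lowers the HG sums most. The order of the groups in both sets of sums is therefore given for the deposited scale only. The S phase sum was 0.503% to 0.533% and the G2/M sum 0.415% to 0.473% of the total FPKM of a library. Sums are led by the most abundant genes, and no test was made of them.

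**Figure D3:**
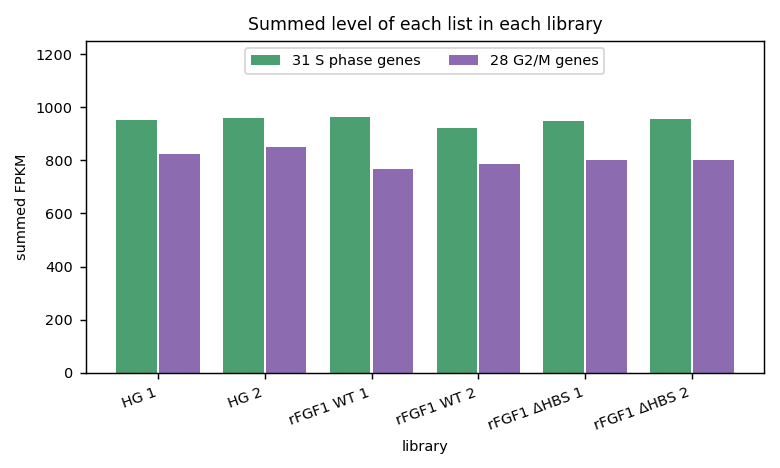
Summed FPKM of the S phase genes (green) and of the G2/M genes (purple) in each of the 6 libraries, on a y axis that starts at 0. The S phase sums lie between 921.2 and 962.4 and the G2/M sums between 768.1 and 850.0. On this deposited scale the G2/M sums are highest in the 2 HG libraries.

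The licensing genes, 12 in number, held the most abundant members and varied little between groups. Mcm4, of the helicase, stood at 142 and 125 FPKM in HG, 126 and 131 with rFGF1WT, and 119 and 144 with rFGF1ΔHBS. Mcm7, another of its 6 subunits, stood at 139 and 133 FPKM in HG, 128 and 124 with rFGF1WT, and 123 and 128 with rFGF1ΔHBS. Mcm3 stood at 65.2 and 78.98 FPKM in HG, 81.4 and 76.96 with rFGF1WT, and 78.3 and 69.8 with rFGF1ΔHBS. Each of these genes overlapped between rFGF1WT and rFGF1ΔHBS, and of the 3 only Mcm7 was lower in every library with either protein than in HG, with a difference of -0.11 on the log2 scale for each (adjusted p = 0.268 and 0.252, limma). The other helicase subunits Mcm2, Mcm5 and Mcm6 ranged over 42.9 to 45.9 FPKM, 37.4 to 43.9 FPKM and 63.02 to 71.3 FPKM across the 6 libraries. Cdc6, which recruits the helicase to origins, stood at 10.8 and 13.5 FPKM in HG, 11.4 and 12.1 with rFGF1WT, and 13.8 and 13.5 with rFGF1ΔHBS. Cdt1, its partner in loading, stood at 20.7 and 21.7 FPKM in HG, 24.8 and 18.03 with rFGF1WT, and 17.3 and 17.9 with rFGF1ΔHBS. For Cdt1 the first rFGF1WT library was the highest of the 6, and the 2 rFGF1ΔHBS libraries were the lowest. The difference of rFGF1ΔHBS minus rFGF1WT was 0.20 for Cdc6 and -0.26 for Cdt1 (both adjusted p = 0.905, limma), and that of Cdt1 was -0.04 without the first rFGF1WT library and -0.48 without the second. Gmnn, the inhibitor of CDT1, ranged over 21.1 to 25.4 FPKM, the origin recognition subunits Orc1 and Orc6 over 4.999 to 6.74 FPKM and 13.8 to 15.03 FPKM, and the initiation factor Mcm10 over 6.95 to 7.97 FPKM. Across the licensing genes, differences on the log2 scale lay between -0.20 and 0.14 for rFGF1WT against HG and between -0.26 and 0.22 for rFGF1ΔHBS against HG, and none passed an adjusted p of 0.05.

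At the replication fork, Pcna and Fen1 bear on the study's readouts of proliferation. These were PCNA protein in mouse kidney and, among other genes, Fen1 mRNA in MPCs. The study reports such signals in MPCs as lower with rFGF1ΔHBS than with rFGF1WT. The values here are mRNA of MPCs and not kidney protein. Pcna, the sliding clamp, stood at 33.04 and 32.4 FPKM in HG, 33.4 and 34.98 with rFGF1WT, and 33.2 and 31.4 with rFGF1ΔHBS. It varied little, with differences of 0.06 for rFGF1WT against HG, -0.02 for rFGF1ΔHBS against HG (0.02 with median-ratio scaling) and -0.08 for rFGF1ΔHBS against rFGF1WT, the last with a 95% interval of -0.23 to 0.07. The locus of Pcna carries the name of Tmem230 as well, and fragments of the 2 genes cannot be told apart in it. Fen1, the flap endonuclease that processes Okazaki fragments, stood at 27.5 and 33.8 FPKM in HG, 37.1 and 22.7 with rFGF1WT, and 25.3 and 25.2 with rFGF1ΔHBS. The 2 rFGF1WT libraries held the highest and the lowest of the 6 values, so the difference of rFGF1ΔHBS minus rFGF1WT was -0.19 with a wide interval of -0.88 to 0.49, and it turned to 0.15 when the first rFGF1WT library was left out. Prim1, the catalytic subunit of primase, stood at 32.2 and 38.7 FPKM in HG, 30.3 and 27.4 with rFGF1WT, and 35.1 and 29.9 with rFGF1ΔHBS. Both rFGF1WT libraries were below both HG libraries, with a difference of -0.29 on the log2 scale (95% interval -0.64 to 0.07). The remaining fork genes were the clamp loader subunits Rfc3 (17.2 to 20.9 FPKM) and Rfc4 (19.3 to 25.8 FPKM) and the polymerase subunits Pola1 (10.4 to 11.6 FPKM) and Pole (24.4 to 28.9 FPKM). Differences of the 7 fork genes lay between -0.29 and 0.06 for rFGF1WT against HG and between -0.26 and 0.08 for rFGF1ΔHBS against HG, and none passed an adjusted p of 0.05.

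The genes of nucleotide supply held the 2 S phase genes that rose. Tk1, thymidine kinase of the salvage pathway, stood at 8.47 and 8.72 FPKM in HG, 12.4 and 11.2 with rFGF1WT, and 11.1 and 11.2 with rFGF1ΔHBS. Both FGF1 groups lay above both HG libraries, and they overlapped each other. Rrm2, the small subunit of ribonucleotide reductase that limits the supply of deoxynucleotides, stood at 58.3 and 55.2 FPKM in HG, 71.04 and 69.2 with rFGF1WT, and 78.1 and 75.3 with rFGF1ΔHBS. Its 3 groups did not overlap, with HG lowest and rFGF1ΔHBS highest. Tk1 rose with rFGF1WT by 0.41 ± 0.07 on the log2 scale (SE, limma adjusted p = 0.0492) and differed by 0.34 ± 0.07 with rFGF1ΔHBS (adjusted p = 0.0694). Rrm2 rose with rFGF1ΔHBS by 0.43 ± 0.05 (adjusted p = 0.0259) and differed by 0.30 ± 0.05 with rFGF1WT (adjusted p = 0.0507). Leaving out any 1 of the 6 libraries ended both calls, with adjusted p of 0.0834 to 0.169 for Tk1 and 0.0659 to 0.10 for Rrm2, while the differences stayed at 0.34 to 0.48 and 0.39 to 0.47. Between the proteins, rFGF1ΔHBS minus rFGF1WT was -0.07 for Tk1 (95% interval -0.26 to 0.11) and 0.13 for Rrm2 (-0.01 to 0.27). The large reductase subunit Rrm1 (40.3 to 46.8 FPKM) and thymidylate synthase Tyms (10.3 to 13.2 FPKM) differed by -0.10 and 0.03 for rFGF1WT against HG. Tk1 lies at chr11:117815526-117826092 and Rrm2 at chr12:24708241-24714146 in GRCm38.

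Among the E2F factors and the cyclin E genes, E2f2 and E2f3 had the widest 95% intervals between the proteins of any S phase gene. E2f2, an activator, was the least abundant member, with 0.821 and 1.08 FPKM in HG, 2.98 and 2.58 with rFGF1WT, and 0.965 and 2.62 with rFGF1ΔHBS. Both rFGF1WT libraries exceeded both HG libraries, but 1 rFGF1ΔHBS library lay within the HG values and the other near those with rFGF1WT. The difference was 0.96 for rFGF1WT against HG (95% interval 0.10 to 1.81, adjusted p = 0.169, limma) and 0.46 for rFGF1ΔHBS against HG. The size depends on the pseudocount, and with 0.1 in place of 1 the differences were 1.46 and 0.71. That of rFGF1ΔHBS was 0.90 without the first rFGF1ΔHBS library and 0.01 without the second. E2f3, the other activator, stood at 6.97 and 6.55 FPKM in HG, 8.60 and 3.88 with rFGF1WT, and 9.28 and 8.03 with rFGF1ΔHBS. Its second rFGF1WT library was the lowest of the 6, which placed rFGF1ΔHBS above rFGF1WT by 0.49 with an interval of -0.42 to 1.41, and by 0.01 without that library. Ccne1, cyclin E1, which partners CDK2 at the entry to S phase, stood at 7.58 and 7.37 FPKM in HG, 9.78 and 9.73 with rFGF1WT, and 8.39 and 9.56 with rFGF1ΔHBS. All 4 libraries with FGF1 were above both HG libraries, by 0.34 with rFGF1WT (adjusted p = 0.0868) and 0.23 with rFGF1ΔHBS (adjusted p = 0.164). Ccne2, cyclin E2, stood at 10.02 and 7.77 FPKM in HG, 12.2 and 7.55 with rFGF1WT, and 11.7 and 11.2 with rFGF1ΔHBS. The 2 rFGF1WT libraries were again the extremes of the 6, and the sign of rFGF1ΔHBS minus rFGF1WT for Ccne2 (0.23) turned to -0.08 without the second of them. E2f1 (7.89 to 9.46 FPKM), the repressors E2f7 (6.55 to 8.48 FPKM) and E2f8 (9.38 to 9.96 FPKM), and Cdk2 (17.1 to 20.4 FPKM) differed by at most 0.10 on the log2 scale in any comparison, in either direction.

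Among the genes of mitotic entry, Ccna2, cyclin A2, had the highest mean of the G2/M genes, with 48.6 and 68.4 FPKM in HG, 59.9 and 68.03 with rFGF1WT, and 69.1 and 57.0 with rFGF1ΔHBS. The groups overlapped throughout, with the lowest and the second highest value both in HG. Cdc25c, a phosphatase that activates CDK1, stood at 13.7 and 13.3 FPKM in HG, 13.2 and 10.4 with rFGF1WT, and 10.8 and 9.92 with rFGF1ΔHBS. Cdc25b, its paralog, stood at 17.9 and 13.5 FPKM in HG, 12.3 and 12.9 with rFGF1WT, and 15.1 and 15.1 with rFGF1ΔHBS. For Cdc25c all 4 libraries with FGF1 were below both HG libraries, the 2 rFGF1ΔHBS libraries further on average (-0.35, 95% interval -0.69 to -0.01, adjusted p = 0.191, limma), and for Cdc25b both rFGF1WT libraries were below both HG libraries (-0.28, interval -0.65 to 0.09). Ccnb2, cyclin B2, ranged over 37.98 to 48.3 FPKM, was lower in both groups with FGF1 than in HG without overlap, and differed by -0.20 with rFGF1WT (adjusted p = 0.123) and -0.30 with rFGF1ΔHBS (adjusted p = 0.0596). Ccnb1, cyclin B1, ranged over 21.5 to 24.1 FPKM and Cdk1 over 22.2 to 28.6 FPKM.

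Plk1, polo-like kinase, which drives spindle assembly and mitotic entry, stood at 33.5 and 33.2 FPKM in HG, 33.4 and 34.8 with rFGF1WT, and 44.7 and 52.7 with rFGF1ΔHBS. The 2 rFGF1ΔHBS libraries were the highest, and those of HG and rFGF1WT lay within a narrow range below them. The difference was 0.53 ± 0.09 for rFGF1ΔHBS against HG (SE, adjusted p = 0.0521, limma) and 0.50 ± 0.09 for rFGF1ΔHBS against rFGF1WT (adjusted p = 0.345). Neither passed the threshold over all tested loci in the main fit. With other processing that left out no single library, the difference from HG was 0.50 to 0.57, with adjusted p of 0.0454 to 0.108 (limma). Plk1 was the 1 member with an unadjusted p under 0.05 between the proteins. Birc5, survivin of the chromosomal passenger complex, stood at 12.3 and 22.4 FPKM in HG, 12.9 and 12.7 with rFGF1WT, and 19.5 and 23.4 with rFGF1ΔHBS. The 2 HG libraries differed by 1.83-fold from each other, both rFGF1WT libraries lay near the lower of them, and both rFGF1ΔHBS libraries were above both rFGF1WT libraries (0.69, 95% interval -0.10 to 1.48, adjusted p = 0.905). The other kinases of this group, Aurka (20.5 to 27.3 FPKM), Aurkb (16.02 to 21.6 FPKM) and the checkpoint kinase Ttk (9.85 to 11.01 FPKM), differed by at most 0.25 on the log2 scale in either direction.

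The G2/M genes that fell belong to the spindle checkpoint and the spindle. Bub1b, which encodes the checkpoint protein BUBR1 and lies at chr2:118598211-118641591 in GRCm38, stood at 35.7 and 33.96 FPKM in HG, 25.4 and 25.3 with rFGF1WT, and 26.6 and 26.04 with rFGF1ΔHBS. Both HG libraries were well above the 4 libraries with FGF1, which lay within a range of 25.3 to 26.6 FPKM. Nusap1, a microtubule-binding spindle protein at chr2:119618298-119651244, stood at 23.3 and 23.6 FPKM in HG, 19.3 and 18.8 with rFGF1WT, and 19.8 and 20.3 with rFGF1ΔHBS. Again both HG libraries were above all 4 libraries with FGF1. Bub1b fell by 0.44 ± 0.05 on the log2 scale with rFGF1WT (SE, limma adjusted p = 0.0232) and by 0.39 ± 0.05 with rFGF1ΔHBS (adjusted p = 0.0292). Nusap1 fell by 0.29 ± 0.05 with rFGF1WT (adjusted p = 0.0492) and differed by -0.21 ± 0.05 with rFGF1ΔHBS (adjusted p = 0.0834). Leaving out any 1 of the 6 libraries ended these calls, with adjusted p of 0.0601 to 0.0972 and 0.0734 to 0.106 for Bub1b and 0.0905 to 0.154 for Nusap1. The differences stayed at -0.48 to -0.41 and -0.43 to -0.36 for Bub1b and at -0.30 to -0.27 for Nusap1. Between the proteins, the difference was 0.05 for Bub1b (95% interval -0.08 to 0.19) and 0.07 for Nusap1 (-0.06 to 0.20).

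Cdc20, which activates the anaphase-promoting complex, stood at 63.6 and 64.4 FPKM in HG, 52.3 and 54.04 with rFGF1WT, and 50.4 and 63.8 with rFGF1ΔHBS. Ube2c, the ubiquitin-conjugating enzyme of that complex, stood at 28.6 and 35.1 FPKM in HG, 38.1 and 40.7 with rFGF1WT, and 35.6 and 38.4 with rFGF1ΔHBS. The pair differed in direction with rFGF1WT, -0.26 for Cdc20 and 0.31 for Ube2c, and neither passed the threshold (adjusted p = 0.276 and 0.207, limma). Leaving out 1 library gave 0.16 to 0.45 for Ube2c. Hmmr, a spindle protein and hyaluronan receptor, stood at 19.4 and 18.4 FPKM in HG, 11.1 and 12.5 with rFGF1WT, and 12.3 and 19.02 with rFGF1ΔHBS. Both rFGF1WT libraries were below both HG libraries (-0.63, 95% interval -1.20 to -0.06, adjusted p = 0.171), while the 2 rFGF1ΔHBS libraries differed by 1.54-fold from each other. The kinesins Kif11 (40.4 to 57.97 FPKM), Kif20a (38.03 to 43.2 FPKM) and Kif23 (23.8 to 25.3 FPKM) and the spindle assembly factor Tpx2 (40.98 to 42.6 FPKM) differed by at most 0.29 on the log2 scale, and Tpx2 and Kif23 were among the steadiest members. The checkpoint kinase Bub1 ranged over 16.1 to 18.1 FPKM, and the centromere genes Cenpa, Cenpe and Cenpf over 12.5 to 14.8 FPKM, 22.5 to 29.5 FPKM and 10.1 to 11.6 FPKM.

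Mki67, which encodes Ki-67, the protein that coats mitotic chromosomes and marks cycling cells, stood at 61.4 and 60.98 FPKM in HG, 53.4 and 59.2 with rFGF1WT, and 58.7 and 57.3 with rFGF1ΔHBS. The 6 values were close, with the first rFGF1WT library the lowest and, as deposited, every library with FGF1 below both HG libraries. Mki67 differed by -0.12 for rFGF1WT against HG (95% interval -0.29 to 0.05), -0.08 for rFGF1ΔHBS against HG and 0.04 for rFGF1ΔHBS against rFGF1WT (-0.13 to 0.22), and the last turned to -0.03 when the first rFGF1WT library was left out. Top2a, the topoisomerase that untangles sister chromatids, ranged over 50.5 to 57.6 FPKM. Foxm1, a transcription factor of G2/M genes, stood at 14.8 and 14.4 FPKM in HG, 11.3 and 6.18 with rFGF1WT, and 6.14 and 5.31 with rFGF1ΔHBS. Both rFGF1ΔHBS libraries and the second rFGF1WT library lay between 5.31 and 6.18 FPKM, below the first rFGF1WT library and both HG libraries. Its difference of -1.22 ± 0.28 for rFGF1ΔHBS against HG was the widest of any member (adjusted p = 0.0857, limma), that of rFGF1WT was -0.73 ± 0.28 (adjusted p = 0.207), and rFGF1ΔHBS minus rFGF1WT was -0.49 (interval -1.23 to 0.26). The values that involve rFGF1WT rest on which of its 2 libraries is used, since without the first they were -1.12 against HG and -0.10 between the proteins, and without the second -0.34 and -0.88. Foxm1 passed both limits for rFGF1ΔHBS against HG when the first or the second rFGF1WT library was left out of the fit, at a lowest adjusted p of 0.0426, although those libraries take no part in that comparison. The locus of Foxm1 also carries the names 4933413G19Rik, Gm44596 and Nrip2. Mybl2, which encodes B-MYB, ranged over 10.3 to 14.9 FPKM and differed by 0.28 with rFGF1WT and 0.19 with rFGF1ΔHBS, with adjusted p of 0.278 and 0.436.

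**Figure D4:**
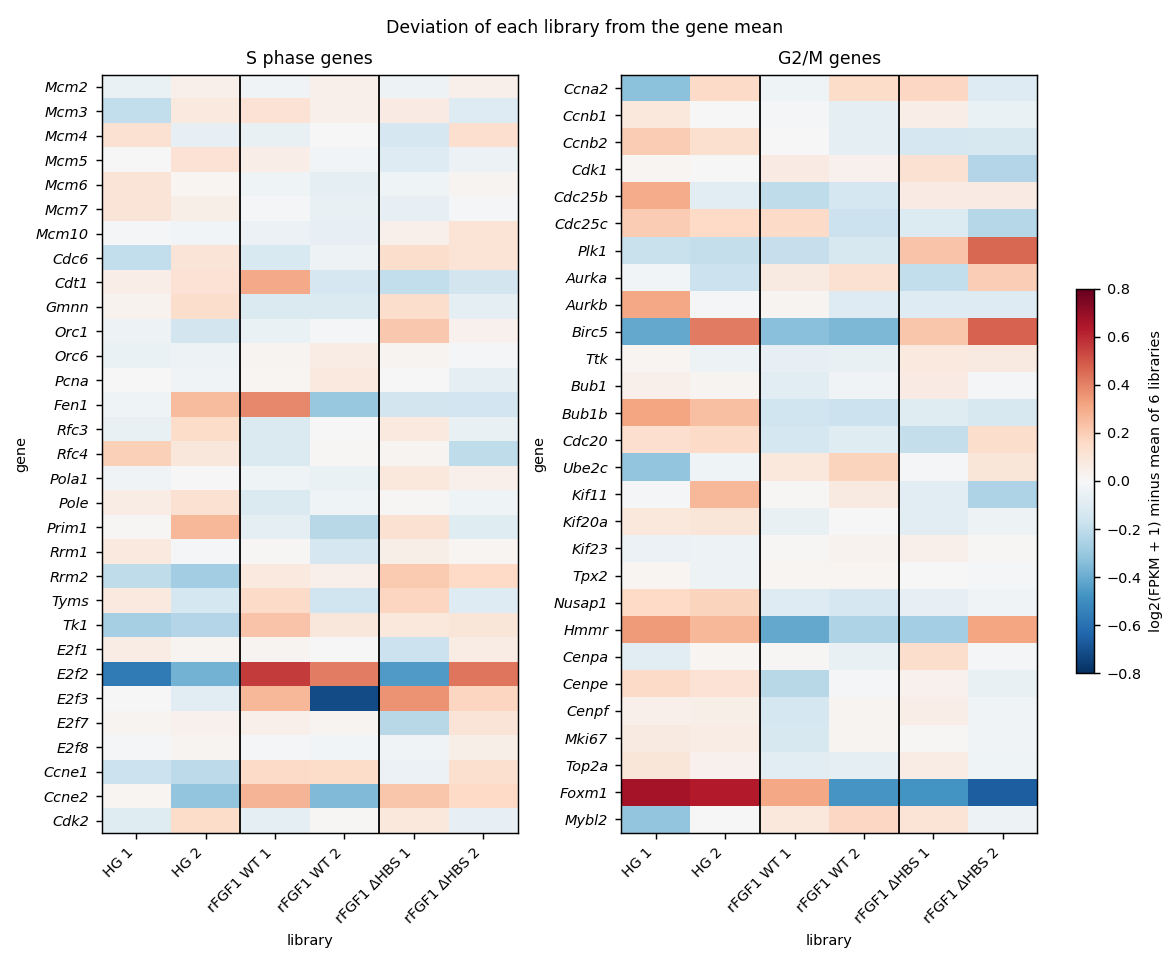
Heat map of log2(FPKM + 1) minus the mean of the 6 libraries for each S phase gene (left) and G2/M gene (right), with libraries in columns and vertical lines between the groups; red is above and blue below the mean of the gene. Tk1, Rrm2 and Ccne1 are blue in both HG libraries, Bub1b and Nusap1 are red in both, and E2f3, Fen1 and Ccne2 differ in colour between the 2 rFGF1WT libraries.

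Against HG, the members called with rFGF1WT were Tk1, which was higher, and Bub1b and Nusap1, which were lower. At an adjusted p under 0.05 alone, 1 of 31 S phase genes was higher and 2 of 28 G2/M genes were lower, while 6.19% of all tested loci were called, 3.26% higher and 2.94% lower. Of all called loci, 52.6% were higher as deposited and 63.6% with median-ratio scaling, which called 2 S phase genes upwards and 1 G2/M gene downwards. The share of members called was thus near that of all loci. At an unadjusted p under 0.05 there were 5 S phase genes (16.1%) and 6 G2/M genes (21.4%), against 24.8% of all loci. The median difference was -0.03 for the S phase genes, -0.11 for the G2/M genes and -0.04 for all tested loci, and with median-ratio scaling the 3 values became 0.02, -0.06 and 0.01. The libraries of the 2 groups did not overlap for 6 S phase genes that were higher and 8 that were lower, and for 5 G2/M genes that were higher and 16 that were lower (57.1%), where 24.1% of all loci were higher without overlap and 34.1% lower. Overlap counts here and in the comparisons below are for the deposited scale only, and median-ratio scaling would lower the HG libraries most. For 29 of the 31 S phase genes and 25 of the 28 G2/M genes the whole 95% interval of the difference lay within 2-fold, and for 24 and 16 it lay within 0.5 on the log2 scale, a 1.41-fold change. That interval reached a median of 0.25 to either side for S phase genes and 0.24 for G2/M genes.

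The members called for rFGF1ΔHBS against HG were Rrm2, which was higher, and Bub1b, which was lower. At an adjusted p under 0.05 alone, 1 S phase gene was higher and 1 G2/M gene lower, against 6.26% of all tested loci, 3.37% higher and 2.89% lower. At an unadjusted p under 0.05 there were 3 S phase genes (9.68%) and 7 G2/M genes (25.0%), against 24.9% of all loci. The medians were -0.01 for S phase genes, -0.05 for G2/M genes and -0.04 for all loci, and 0.04, -0.01 and 0.00 with median-ratio scaling. Without overlap, 10 S phase genes were higher and 6 lower, and 4 G2/M genes were higher and 10 lower, beside 24.4% of all loci higher and 32.9% lower. The whole interval lay within 2-fold for 28 S phase and 26 G2/M genes and within 0.5 on the log2 scale for 22 and 16. Both comparisons with HG use the same 2 HG libraries, so they are not independent of each other.

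Between the proteins, none of the 59 members was called. None passed an adjusted p of 0.05 (limma), where 0.549% of all tested loci did, and at an unadjusted p under 0.05 there were 0 S phase genes and 1 G2/M gene, Plk1, against 4.87% of all loci. The median of rFGF1ΔHBS minus rFGF1WT was 0.03 for the S phase genes, 0.04 for the G2/M genes and 0.01 for all loci. Without overlap, 8 S phase genes were higher and 4 lower with rFGF1ΔHBS, and 8 G2/M genes were higher and 5 lower, beside 18.4% of all loci higher and 16.1% lower. The interval of the difference lay wholly within 2-fold for 29 of 31 S phase genes and 26 of 28 G2/M genes, and within 0.5 on the log2 scale for 24 and 19. Differences smaller than these intervals were not detectable with 2 libraries per group, so a missed threshold does not show that the proteins act alike on a gene. The S phase genes whose interval was widest were E2f3 and E2f2, and the G2/M genes Birc5 and Foxm1.

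**Figure D5:**
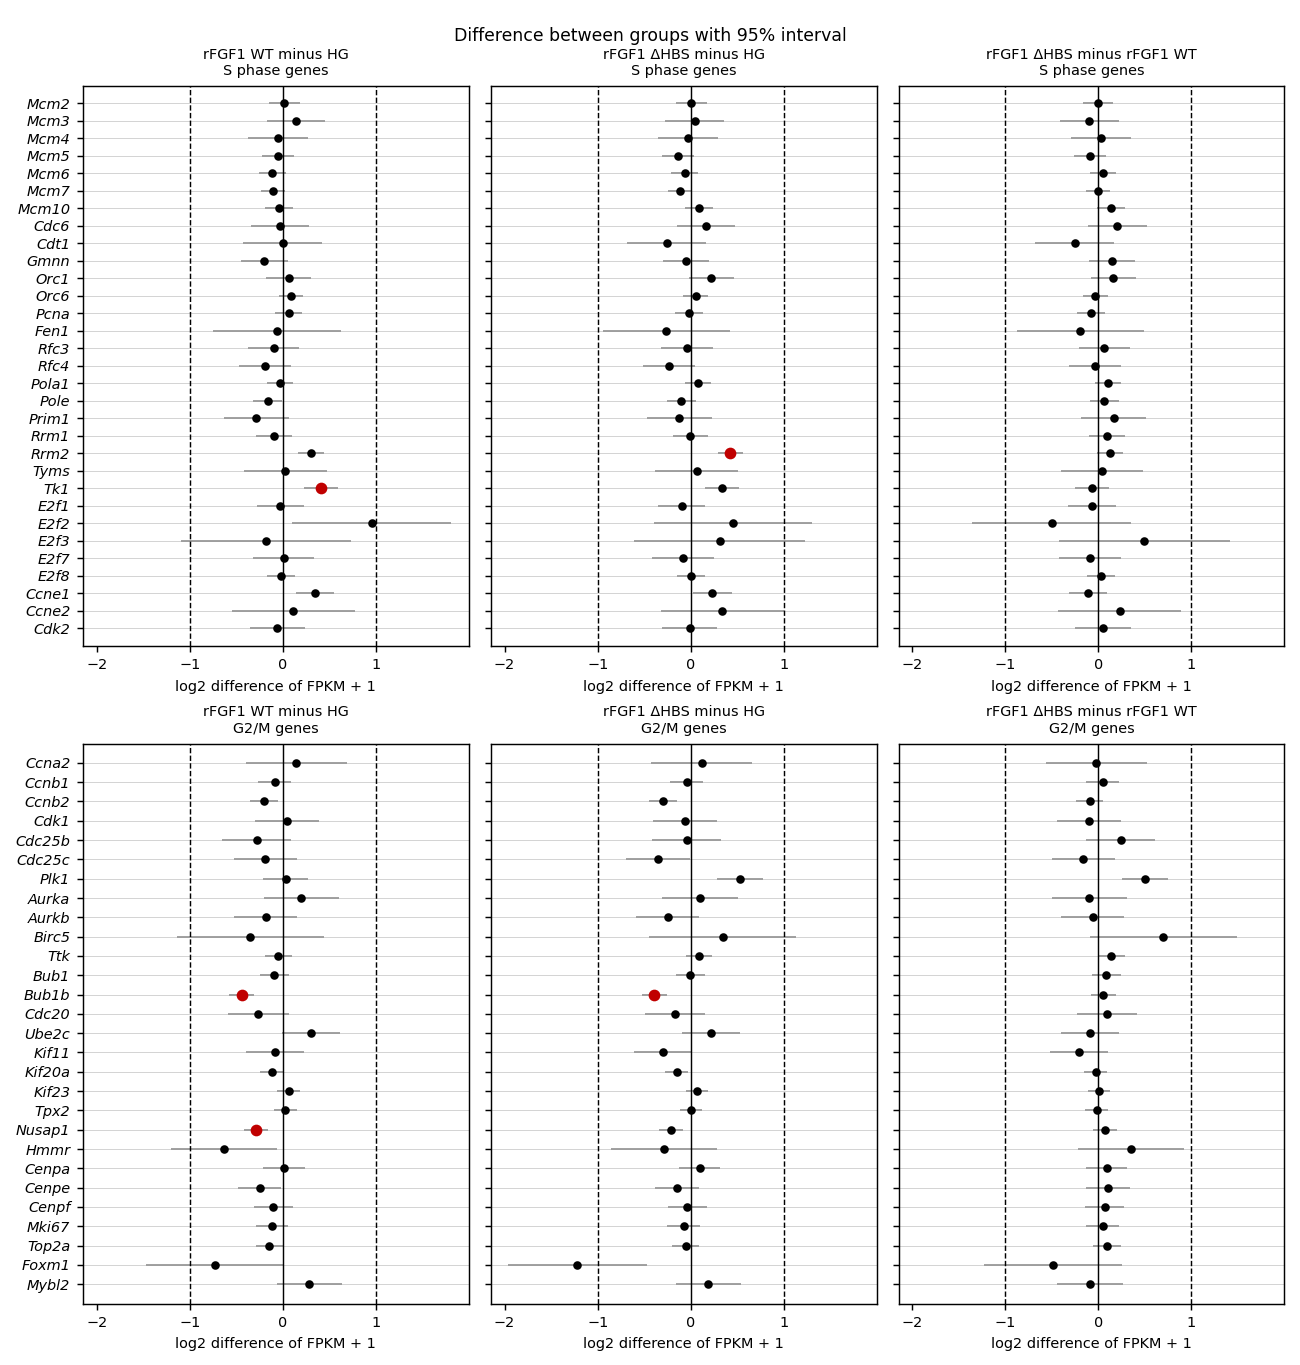
Difference on the log2(FPKM + 1) scale for each S phase gene (upper row) and G2/M gene (lower row) in the 3 comparisons, with bars for the 95% interval from limma; dashed lines mark a 2-fold change and larger red points an adjusted p under 0.05. Red points are Tk1, Bub1b and Nusap1 for rFGF1WT against HG, Rrm2 and Bub1b for rFGF1ΔHBS against HG, and none between the proteins.

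The rest of the cell cycle network was read from lists of other genes. Of 51 other replication genes, 1 rose and 2 fell with rFGF1WT, 1 rose with rFGF1ΔHBS, and 2 were higher with rFGF1ΔHBS than with rFGF1WT. Of all tested loci, 6.19%, 6.26% and 0.549% were called in these comparisons. Orc2, of the origin recognition complex, stood at 14.4 and 14.6 FPKM in HG, 20.5 and 19.6 with rFGF1WT, and 21.1 and 20.5 with rFGF1ΔHBS. It rose by 0.44 and 0.49 on the log2 scale with the 2 proteins (adjusted p = 0.0252 and 0.0214, limma). Dbf4, the activator of the CDC7 kinase that fires origins, stood at 14.5 and 13.4 FPKM in HG, 6.82 and 7.22 with rFGF1WT, and 14.4 and 13.7 with rFGF1ΔHBS. Asf1b, a histone chaperone, stood at 17.4 and 17.6 FPKM in HG, 9.66 and 10.4 with rFGF1WT, and 19.6 and 18.2 with rFGF1ΔHBS. Both genes were lower with rFGF1WT than in the 4 other libraries, and against HG they fell by 0.90 and 0.75 (adjusted p = 0.0130 and 0.0166). With rFGF1ΔHBS they stood at 0.01 and 0.10 from HG, and rFGF1ΔHBS minus rFGF1WT was 0.91 for Dbf4 (adjusted p = 0.0305) and 0.85 for Asf1b (adjusted p = 0.0381), although leaving out any 1 of the 6 libraries ended both calls between the proteins, with adjusted p of 0.0749 to 0.101 and 0.0734 to 0.116 and differences of 0.87 to 0.95 and 0.80 to 0.90. The fall with rFGF1WT was not called for Dbf4 without the first HG or either rFGF1WT library (highest adjusted p = 0.0602), nor for Asf1b without any 1 of the HG and rFGF1WT libraries (0.0780), and no call of Orc2 remained when any 1 of the 6 was left out (0.0557 to 0.106).

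Of 48 other mitosis genes, 1 rose and 2 fell with rFGF1WT and 1 rose and 1 fell with rFGF1ΔHBS, and none was called between the proteins. The shares of all tested loci called were 6.19%, 6.26% and 0.549%. Cdca5, sororin, which stabilizes cohesion of sister chromatids, stood at 19.8 and 17.5 FPKM in HG, 8.75 and 9.44 with rFGF1WT, and 10.1 and 9.04 with rFGF1ΔHBS. It fell by 0.96 and 0.89 (adjusted p = 0.0192 and 0.0215, limma). Gtse1, a microtubule-associated protein of G2 and S phase, stood at 37.7 and 40.2 FPKM in HG, 56.1 and 55.9 with rFGF1WT, and 56.1 and 61.4 with rFGF1ΔHBS. It rose by 0.51 and 0.58 (adjusted p = 0.0294 and 0.0235). Hjurp, the chaperone of the centromeric histone, fell by 0.33 with rFGF1WT (adjusted p = 0.0419). Leaving out any 1 of the 6 libraries ended the calls of all 3 genes, with adjusted p from 0.0525 for Cdca5 to 0.144 for Hjurp. The deposited data place 88 tested loci that are not members in the KEGG Cell cycle pathway. Of these, 7 rose and 3 fell with rFGF1WT, 5 rose with rFGF1ΔHBS, and 1 differed between the proteins. The called loci include Dbf4, Orc2, Ccnd1, Ccnd2, Myc, Cdc25a and E2f4, which the other lists hold as well. The 1 between the proteins was Dbf4. Of the 21 such loci of the KEGG DNA replication pathway, none was called in any comparison (limma), and 2, 4 and 0 had an unadjusted p under 0.05.

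Upstream of replication, differences were larger for a few genes. Of 8 genes of G1, 4 rose with rFGF1WT and 3 with rFGF1ΔHBS, where 6.19% and 6.26% of all tested loci were called. Ccnd1, cyclin D1, which activates CDK4 and CDK6, stood at 5.53 and 5.05 FPKM in HG, 40.2 and 39.5 with rFGF1WT, and 39.1 and 42.5 with rFGF1ΔHBS, a rise of 2.70 and 2.73 on the log2 scale (adjusted p = 0.00145 and 0.00161, limma). Ccnd2, cyclin D2, rose by 1.56 and 1.59, and Cdc25a, the phosphatase of CDK2, by 0.75 and 0.68, while Myc rose by 0.99 with rFGF1WT (adjusted p = 0.0457) and differed by 0.90 with rFGF1ΔHBS (adjusted p = 0.0531). None of the 8 was called between the proteins, and none had an unadjusted p under 0.05 there. Of 22 tested inhibitors of cyclin-dependent kinases and quiescence genes, 2 rose and 1 fell with rFGF1WT and 1 rose and 1 fell with rFGF1ΔHBS. The shares of all tested loci to set beside these counts are the same 6.19% and 6.26%. Ccng1, cyclin G1, a target of p53, stood at 23.2 and 21.5 FPKM in HG, 75.3 and 67.4 with rFGF1WT, and 87.2 and 85.6 with rFGF1ΔHBS, a rise of 1.63 and 1.90. Ccng2, cyclin G2, which is linked to arrest, fell by 0.53 and 0.54, and E2f4, the E2F of repressor complexes, rose by 0.58 with rFGF1WT (adjusted p = 0.0236). The inhibitor Cdkn1a, p21, stood at 31.2 and 10.2 FPKM in HG, 19.97 and 20.9 with rFGF1WT, and 58.3 and 22.8 with rFGF1ΔHBS. Its replicates differed widely in HG and with rFGF1ΔHBS, and it was not called (adjusted p = 0.904 and 0.441 against HG). Cdkn1b, p27, lay between 9.92 and 19.7 FPKM and Cdkn2a between 119 and 132 FPKM, and neither was called. In the fits without any 1 of the 6 libraries, Ccnd1, Ccnd2 and Ccng1 kept their calls with both proteins (highest adjusted p = 0.0307), the calls of Myc, E2f4 and Ccng2 were lost each time (lowest adjusted p = 0.0518), and Cdc25a kept its call in 2 of these 6 fits for rFGF1WT, those without an rFGF1ΔHBS library, and in 0 for rFGF1ΔHBS.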

How the data were processed

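The authors made 6 poly(A) libraries of MPCs, sequenced both ends and deposited 1 table of FPKM per locus, and the study's methods name edgeR for summarizing FPKM. The submitters' processing notes list Bowtie 0.12.2, HISAT2 2.0, StringTie 1.3.0 and the build mm8, with no role or order. The table holds no read counts, so the depth and the counting error of a value are unknown. Libraries were grouped by their labels. The deposited FPKM were put on the log2 scale after adding 1, and limma 3.58.1 (R 4.3.3; lmFit, contrasts and eBayes with a trend) was run over the 10562 loci whose mean reached 1 FPKM, all 6 libraries in 1 fit with 3 residual degrees of freedom, and p-values were adjusted by Benjamini-Hochberg over all of them. Fold changes are on the log2(FPKM + 1) scale, which understates changes of low genes. The main limits were an adjusted p under 0.05 together with a 2-fold change, and genes that met them are described as past both limits. A gene is described as called at an adjusted p under 0.05 alone, whatever the size of its change. The code was tested on simulated data.

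The members and lists were chosen with earlier results of these data known. Values in every library are printed for members called at the adjusted p, the 5 S phase and 5 G2/M members with the largest change in each comparison, the 3 most abundant of each phase, and Pcna, Mki67 and Fen1. Of the other lists, genes past both limits and at most 5 more per list with the smallest adjusted p may be named. Cdkn1a, Cdkn1b and Cdkn2a, the members given by range and the widest or steadiest members were named after their values were seen. 2 members lie on loci that merge several genes, among 519 such loci, fragments shared by paralogs or overlapping genes cannot be traced from the table, and whether strand was used is not given in the sources used here. Gene positions are from GENCODE M21 (GRCm38) and promoters from RefSeq (GRCm38.p6), used by symbol only. Replicate numbers did not pair the libraries, since deviations of same-numbered libraries from their group means correlated at -0.0467 to 0.098. Figures were made with matplotlib 3.10.9 in Python 3.11.15. The study's protein, PCR and mouse experiments are not analysed here, and 1 gene of the podocyte list is not reported here.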

Additional observations from a re-analysis of the deposited data

Results flagged for a closer look

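Dbf4 and Asf1b, from the list of other replication genes, were singled out because the effects of the 2 proteins on them differed in a direct test. For Dbf4, rFGF1ΔHBS minus rFGF1WT was 0.91 on the log2 scale (limma, adjusted p = 0.0305), with differences of -0.90 with rFGF1WT and 0.01 with rFGF1ΔHBS against HG. For Asf1b, the difference was 0.85 (adjusted p = 0.0381), with -0.75 and 0.10 against HG. In both genes the 2 rFGF1WT libraries were below the 4 others, and the spread between replicates was small beside the difference. The difference kept its size but lost the call in every fit without 1 library, with only the 4 libraries compared (adjusted p = 0.0736 for Dbf4 and 0.116 for Asf1b) and with the replicate block (0.15 and 0.166). For Asf1b it was also lost with no filter on low values (0.0505) and with only loci above 0 in all libraries (0.0527). Neither gene was among the 59 members, and no member met this condition.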

How the results depend on the processing

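Of 18 alternatives, 12 changed the filter, scaling, pseudocount, fit or lists and 6 left out 1 library each. The count of members past both limits stayed at 0 except for rFGF1ΔHBS against HG, where Foxm1 passed with only the 4 libraries compared (1 G2/M gene) and in 2 of the fits without a library (range 0 to 1). Without the 2-fold limit the counts were, by construction, those at the adjusted p alone, 1 S phase and 2 G2/M genes for rFGF1WT and 1 and 1 for rFGF1ΔHBS. At the adjusted p alone, rFGF1WT against HG had 1 S phase gene, which became 2 with a filter at a mean FPKM of 5 or median-ratio scaling and 0 with no filter, the 4 libraries compared or robust eBayes. Its 2 G2/M genes became 1 with median-ratio scaling, no filter or only loci above 0 in all libraries, and 0 with the 4 libraries compared. For rFGF1ΔHBS against HG, the 1 S phase gene became 0 with no filter or the 4 libraries compared, and the 1 G2/M gene became 2 with the filter at 5, median-ratio scaling, quantile normalization or only loci above 0. Plk1, which was higher, reached a lowest adjusted p of 0.0454 (limma) over the alternatives that left out no single library. The cause of these changes in count was not tested, except that fits of 4 or 5 libraries have fewer residual degrees of freedom. Leaving out a library gave counts of 0 to 0 for both phases with rFGF1WT, 0 to 0 for S phase and 0 to 1 for G2/M genes with rFGF1ΔHBS.

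With the replicate block, which the libraries' numbers do not justify as a pairing, 0 S phase and 0 G2/M genes were called in either comparison with HG.

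The S phase median against HG was 0.02 with median-ratio scaling and 0.00 with quantile normalization for rFGF1WT (main -0.03), and 0.04 and -0.02 for rFGF1ΔHBS (main -0.01). The G2/M median with median-ratio scaling was -0.06 for rFGF1WT (main -0.11) and -0.01 for rFGF1ΔHBS (main -0.05). Leaving out a library gave S phase medians of -0.04 to 0.00, -0.01 to 0.02 and 0.02 to 0.04 and G2/M medians of -0.12 to -0.08, -0.08 to -0.02 and 0.00 to 0.06 for rFGF1WT against HG, rFGF1ΔHBS against HG and rFGF1ΔHBS against rFGF1WT. Single genes changed sign for Pcna, rFGF1ΔHBS against HG, with median-ratio scaling (0.02). When 1 library was left out, signs turned for rFGF1WT against HG in Birc5 (-0.76 to 0.06) and Fen1 (-0.41 to 0.28), for rFGF1ΔHBS against HG in Birc5 (-0.07 to 0.75) and Pcna (-0.06 to 0.02), and between the proteins in Ccne2 (-0.08 to 0.54), Mki67 (-0.03 to 0.12) and Fen1 (-0.54 to 0.15).

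Depth is unknown, 2 libraries per group limit the precision, and the median 95% interval of a member spans 0.25 on either side on the log2 scale. No symbol had several loci, so summing loci changed nothing.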
